A study of Mus musculus with 6 samples.

Results

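Basal keratinocytes of mouse dorsal skin were compared between 16 h and 4 h after depilation. They were taken from single-cell RNA libraries as the barcodes with 500 to 7000 detected genes and at most 10% mitochondrial UMIs, in which Krt5 and Krt14, the keratin pair of the basal layer, together made up at least 100 of every 10000 UMIs and Krt1 and Krt10, the keratin pair of the layers above it, under 100. A UMI is 1 captured RNA molecule, and a barcode marks 1 droplet. This gave 5352 barcodes at 4 h and 5865 at 16 h, 11217 of the 55177 barcodes that passed the limits on genes and mitochondrial UMIs in the 6 libraries together, and of 61031 deposited. The mice were adult wildtype FVB males aged 55 to 57 days, and hair regeneration was induced by shaving and waxing the back. Each of the 6 libraries stands for 1 time point, with 0 h, 4 h and 16 h followed by 2 d and then 4 d and 6 d. In each, the separately digested skin cells of 2 mice had been combined in equal numbers, so that the mice cannot be told apart. All groups shared strain, genotype and sex, and the labels do not say whether the 0 h mice were harvested just before or just after waxing. With 1 library per time point no test between time points was possible: all intervals are exact 95% intervals that cover counting error only, and differences between mice, harvests or captures are not in them.

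Basal keratinocytes sit on the basement membrane, hold on to it through integrins, and are the dividing layer from which epidermis and hair follicle (HF) sheath are renewed. Plucking hair injures the follicle and starts a new growth phase. Keratinocytes around an injury are known for expressing the wound keratins Krt6 and Krt16, ligands of the EGF receptor and proteases of the matrix, for changing their adhesion, and for dividing later on.

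The UMIs of all basal barcodes of a library were summed, and a gene's level is its CPM, which is 100 times its count per 10000 UMIs of that sum. Where 6 values of a gene are given, they are in the order of time from 0 h to 6 d. A gene was called higher or lower when its CPM differed at least 2-fold between 16 h and 4 h, among genes with a mean of the 2 libraries of at least 5 CPM, and "rose" and "fell" are used only of such calls. "Undone" is used of a gene that had changed at least 2-fold from 0 h to 4 h and then at least 2-fold in the opposite direction from 4 h to 16 h. The 4 h library is in both steps, so the steps are not independent, and the counts of undone genes are descriptions. Krt5, Krt14, Krt1, Krt10 and the mitochondrial genes chose the barcodes and are left out of all counts.

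Of 8999 genes, 1338 (14.9%) were higher and 690 (7.67%) lower at 16 h than at 4 h. The genes that rose were led by those of mitosis and DNA replication and by genes that 4 h barcodes had nearly lost, such as Trp53inp1, Fbxo32, Apcdd1 and Sox6. The genes that fell were led by Sh2d5, Il24, Tinagl1, Slc29a2 and Serpinb1a, which had been high at 4 h. Most of the calls in both directions undid the 4 h state: 531 genes were raised at 4 h and lowered again (5.85% of the 9071 genes with a mean of 5 CPM over 0 h, 4 h and 16 h), and 992 were lowered and raised again (10.9%). They made up 79.5% of the 668 lower and 70.3% of the 1411 higher genes of that set. Which kind was more numerous depended on the scale: TMM factors gave 890 raised and then lowered and 787 lowered and then raised genes, and median of ratios factors 965 and 755.

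Promoters are printed here for 4 of the genes that the results below turn on, because the cell cycle and ribosome assembly lists moved as blocks and a reader may want to see the letters upstream of them. Each is the 250 bases before the RefSeq start site (assembly GRCm38.p6), 5′ to 3′ on the strand of the gene, and was picked as the member with the largest change that holds the motif. In the first pair, of mitotic genes, capitals mark CCAAT and TTTGAA or their reverse complements ATTGG and TTCAAA. Capitals mark TTCGCG, the core letters of many E2F sites, in the Mcm5 promoter and the E-box CACGTG, which bHLH factors such as Myc can bind, in that of Nop2.
Ccnb2, minus strand, chr9:70421555-70421804: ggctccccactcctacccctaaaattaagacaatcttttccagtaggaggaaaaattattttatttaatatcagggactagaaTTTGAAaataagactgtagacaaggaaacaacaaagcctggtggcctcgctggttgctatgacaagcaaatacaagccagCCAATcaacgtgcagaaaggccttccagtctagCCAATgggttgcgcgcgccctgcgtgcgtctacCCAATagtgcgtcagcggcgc
Kif11, plus strand, chr19:37376132-37376381: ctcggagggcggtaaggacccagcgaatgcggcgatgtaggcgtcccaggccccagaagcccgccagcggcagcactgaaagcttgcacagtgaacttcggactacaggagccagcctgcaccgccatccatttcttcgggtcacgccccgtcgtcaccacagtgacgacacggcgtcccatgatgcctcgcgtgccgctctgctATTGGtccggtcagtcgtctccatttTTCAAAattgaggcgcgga
Mcm5, plus strand, chr8:75109259-75109508: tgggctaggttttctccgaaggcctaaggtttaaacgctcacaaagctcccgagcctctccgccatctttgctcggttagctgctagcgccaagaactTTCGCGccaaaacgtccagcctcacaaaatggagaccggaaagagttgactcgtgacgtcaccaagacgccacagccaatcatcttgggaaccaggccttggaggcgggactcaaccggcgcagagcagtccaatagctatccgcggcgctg
Nop2, plus strand, chr6:125131633-125131882: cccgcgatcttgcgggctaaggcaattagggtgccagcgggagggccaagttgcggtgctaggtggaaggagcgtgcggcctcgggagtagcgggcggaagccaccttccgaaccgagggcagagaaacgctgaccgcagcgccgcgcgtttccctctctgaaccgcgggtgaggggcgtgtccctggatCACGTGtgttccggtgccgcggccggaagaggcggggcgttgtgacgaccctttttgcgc

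Over windows from 250 bases before to 50 after the start, on either strand, CCAAT was in 37.4% of all 32851 promoters of 27025 genes and in 85.2% (23 of 27) of those of the G2 and M phase list. TTTGAA was in 17.9% of all promoters, 11.8% of those of the genes tested and 77.8% (21 of 27) of those of the same list. TTCGCG was in 4.09% of all, 8.66% of those of genes tested and 41.9% (13 of 31) of those of the S phase list. CACGTG was in 7.15% of all, 10.7% of those of genes tested, 16.8% of those of genes that fell and 7 of 35 of those of the ribosome biogenesis list. The letters TGANTCA, bound by AP-1 factors, were in 7.25% of the promoters of genes raised and then lowered, beside 7.81% of all and 5.01% of those of genes tested. TGACGTCA was in 3.05%, 1.79% and 3.32% of the same 3 sets, the CArG box in 1.72%, 1.63% and 1.24%, and GAANNTTC in 4.39%, 7.86% and 5.52%. A match is only a run of letters and was not tested as a binding site. Of the list members, 26 of 30 G2 and M phase genes, 26 of 34 measured S phase genes and 31 of 36 ribosome biogenesis genes had a promoter among these.

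The basal sums held 48725195 UMIs at 4 h and 70058178 at 16 h, with a median barcode of 8798 UMIs and 2625 genes at 4 h and of 10898 UMIs and 2941 genes at 16 h. Mitochondrial UMIs made up 2.52% and 3.49% of the sums and ribosomal protein UMIs 20.9% and 24.7%, beside 28.2% at 0 h. Barcodes with Ly6a, a marker of interfollicular and upper follicle keratinocytes, were 75.6% of the basal barcodes at 4 h and 67.8% at 16 h, and bulge-like barcodes, with Cd34 or Krt24 and without Ly6a, were 3.55% and 4.69%. The 4 h and 16 h libraries shared 7 barcode sequences among passing barcodes and 3 among basal ones. The summed level of 7 basal keratinocyte markers was 29980 and 35300 CPM, that of 8 outer bulge markers 216 and 417 CPM, that of 6 upper follicle basal markers 294 and 734 CPM and that of 6 interfollicular basal markers 3052 and 2265 CPM. Other lineages were low in both libraries: 9 T cell markers summed to 88.7 and 72.1 CPM, 9 Langerhans cell markers to 106.7 and 122.1, 10 neutrophil or macrophage markers to 13.9 and 3.57, 9 melanocyte markers to 3.96 and 9.26 and 6 endothelial markers to 0.944 and 3.50, while 9 fibroblast markers summed to 115.5 and 157.9, nearly all of it Sparc. Several defining markers were at 0, among them 3 of 10 neutrophil or macrophage markers in both libraries and Hbb-bt, and Col1a1, Dcn, Dct and Pmel were each under 1 CPM. The part of these shifts in the results was not tested. Leaving out the barcodes that held 2 or more UMIs of other lineages (Sparc and Thy1 not counted) kept 4667 at 4 h and 5145 at 16 h. In these, 98.0% of the measured genes that rose and 97.7% of those that fell were still 2-fold apart the same way, beside 14.9% and 7.88% of all. They are most of the barcodes that made the calls, so the overlap is built in.

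Among the selection limits, 99 barcodes at 4 h and 102 at 16 h lay up to 10 per 10000 UMIs above the lower limit for Krt5 and Krt14, and 101 and 87 lay as close below it. For Krt1 and Krt10, 14 and 37 barcodes lay up to 10 below the limit and 10 and 26 as close above. At the 2-fold limit, Retreg2 was just inside with 24.2 CPM at 4 h and 48.5 at 16 h (2.003-fold), and Cnpy2 just outside with 44.9 and 89.7 (1.998-fold). Among lower genes, Nufip1 was just inside with 48.9 and 24.4 CPM (2.001-fold).

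The split of calls into higher and lower depended on the scale. With TMM factors the median log2 ratio of all genes moved by -0.25, giving 987 higher and 1181 lower genes (45.5% of calls higher, against 66.0% on totals). With median of ratios size factors it moved by -0.29, giving 925 and 1305 (41.5%), and with totals that leave out ribosomal protein, mitochondrial, Malat1 and Neat1 UMIs by 0.09, giving 1745 and 594 (74.6%). The median of all genes on the scale of totals was 0.06, and list medians below are to be read against it. In the same way, counts of list members called are to be read against the 14.9% higher and 7.67% lower of all genes. Of 38 lists, 13 had a median that changed sign among these scales, and each of them is named as such where it is described.

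Sh2d5, which encodes an adaptor protein with an SH2 domain (chromosome 4, 138250403 to 138261332, plus strand, mm10), had the lowest ratio. It was at 0.442, 97.8, 3.85, 1.65, 0.315 and 0.964 CPM from 0 h to 6 d, a fall of 25.4-fold (95% interval 22.4 to 28.8). The 4 h library stood alone. Serpinb1a, an inhibitor of neutrophil serine proteases (chromosome 13, 32842092 to 32851185, minus strand), was at 17.96, 260.1, 22.98, 17.8, 18.2 and 30.6 CPM from 0 h to 6 d and fell 11.3-fold (10.7 to 11.9). Tinagl1, a matricellular protein of basement membranes, was at 5.68, 134, 10.6, 5.26, 5.75 and 8.77 CPM from 0 h to 6 d and fell 12.7-fold (11.8 to 13.7). Slc29a2, a nucleoside transporter, was at 6.15, 93.6, 7.94, 5.02, 5.83 and 10.4 CPM from 0 h to 6 d and fell 11.8-fold (10.8 to 12.9). In each of these genes the 4 h library was the highest of the 6 by a wide margin.

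Other strong falls were found in genes of varied function. Il24, a cytokine made by activated keratinocytes, was at 6.82, 46.98, 3.48, 7.38, 0.629 and 8.98 CPM from 0 h to 6 d and fell 13.5-fold (11.8 to 15.5). F3, tissue factor, which starts coagulation, was at 56.3, 138, 14.3, 14.8, 5.95 and 46.97 CPM from 0 h to 6 d and fell 9.64-fold (9.02 to 10.3). F3 was already present at 0 h, and at 16 h it lay under its 0 h level. Has3, a hyaluronan synthase, was at 22.6, 130.4 and 13.4 CPM at 0, 4 and 16 h and fell 9.75-fold (9.11 to 10.5). Antxr2, a receptor for matrix proteins, was at 9.41, 98.4 and 10.3 CPM at 0, 4 and 16 h and fell 9.54-fold (8.82 to 10.3). Pitpnc1, a phosphatidylinositol transfer protein, was at 6.57, 46.0 and 4.67 CPM at 0, 4 and 16 h and fell 9.86-fold (8.78 to 11.1). Of these 5 genes all but Pitpnc1 were lower at 4 d than at either 16 h or 2 d. The 8 genes with the strongest rise and fall also included Rab31, a small GTPase of vesicle transport (3.20, 76.3 and 9.29 CPM at 0, 4 and 16 h), Hdac7, a histone deacetylase (10.7, 80.6 and 10.9 CPM at 0, 4 and 16 h), and Tuba8, an alpha tubulin (7.67, 116 and 15.9 CPM at 0, 4 and 16 h).

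Genes that rose most were of 2 kinds, cell cycle genes and genes nearly lost at 4 h. Trp53inp1, a stress response protein induced by P53 (chromosome 4, 11156431 to 11174379, plus strand), was at 62.0, 1.31, 28.8, 44.3, 31.5 and 36.9 CPM from 0 h to 6 d, a rise of 21.9-fold (95% interval 17.1 to 28.6). Fbxo32, an F-box subunit of a ubiquitin ligase (chromosome 15, 58175879 to 58214932, minus strand), was at 124, 2.50, 48.5, 62.1, 62.8 and 59.0 CPM from 0 h to 6 d and rose 19.4-fold (16.2 to 23.4). Both recovered only part of their 0 h level and were under it in the later libraries too. Apcdd1, a membrane inhibitor of Wnt signalling, was at 58.3, 2.996, 49.97, 35.8, 36.2 and 34.7 CPM from 0 h to 6 d and rose 16.7-fold (14.1 to 19.8). Sox6, a transcription factor of the Sox family, was at 81.0, 3.88, 52.7, 66.4, 42.2 and 56.3 CPM from 0 h to 6 d and rose 13.6-fold (11.7 to 15.8). H60c, a ligand for the NKG2D receptor of T cells, was at 39.98, 2.73, 40.8, 78.3, 50.2 and 42.4 CPM from 0 h to 6 d and rose 14.9-fold (12.6 to 17.9). In all 5 genes the 4 h library was by far the lowest of the 6. Slc2a12, a glucose transporter, was at 37.8, 2.07 and 31.6 CPM at 0, 4 and 16 h, and Mettl7a1 at 39.6, 1.46 and 25.7 CPM at 0, 4 and 16 h, with rises of 15.2-fold and 17.6-fold.

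The other genes with the highest ratios belong to the cell cycle. Ccnb2, cyclin B2, was at 35.4, 2.63, 51.4, 46.1, 64.8 and 44.1 CPM from 0 h to 6 d and rose 19.6-fold (16.4 to 23.5). Nusap1, a spindle microtubule protein, was at 41.1, 3.69, 69.7, 54.1, 62.6 and 42.1 CPM from 0 h to 6 d and rose 18.9-fold (16.3 to 22.02). Pclaf, a partner of the replication clamp PCNA, was at 44.9, 7.72, 133, 142, 113 and 76.6 CPM from 0 h to 6 d and rose 17.2-fold (15.5 to 19.1). The 16 h level of Pclaf was well over that of 0 h and was kept at 2 d and 4 d. Cdca3, a mitotic entry factor, was at 31.9, 2.65 and 51.7 CPM at 0, 4 and 16 h and rose 19.5-fold (16.4 to 23.4). Tk1, thymidine kinase, was at 18.1, 2.69 and 43.6 CPM at 0, 4 and 16 h and rose 16.2-fold (13.6 to 19.5). Esco2, an acetyltransferase that ties sister chromatids together, was at 17.1, 2.96 and 43.7 CPM at 0, 4 and 16 h and rose 14.8-fold (12.5 to 17.6). The paths of the undone genes over the 6 libraries are drawn in the plot of levels by time.

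**Figure D1:**
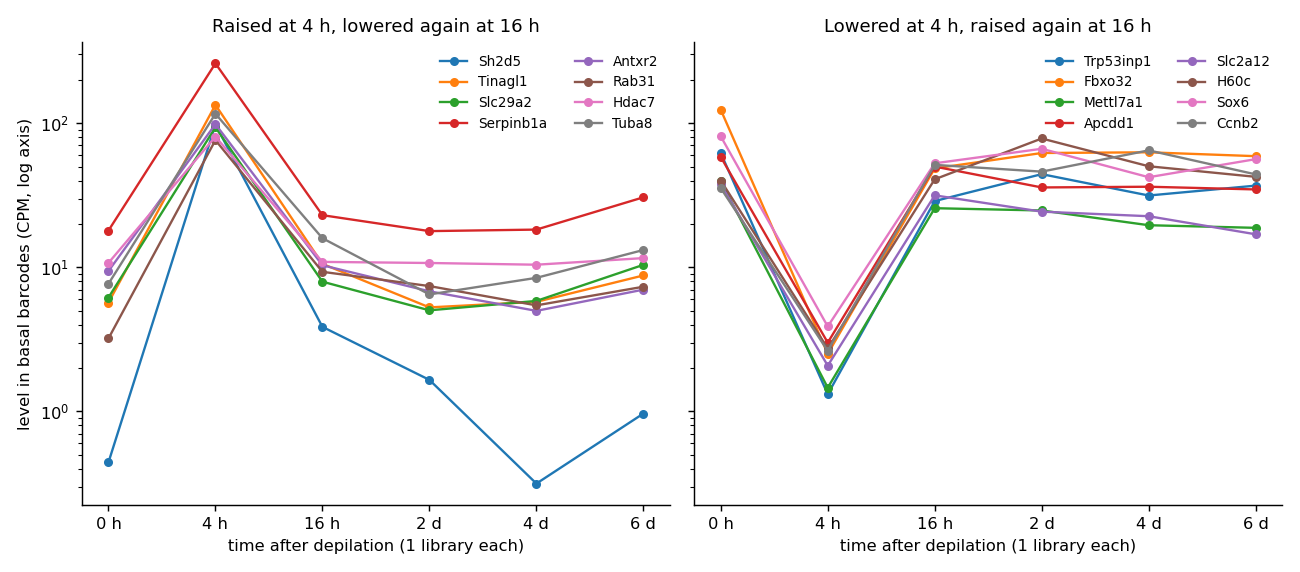
Level (CPM, log axis) of the 8 genes of each kind of undone change in the basal barcodes of each library, 1 point per library, in order of time after depilation. The 4 h library is the highest in all 8 genes of the left panel and the lowest in all 8 of the right panel, and the 16 h points lie near those of 2 d, 4 d and 6 d in most genes.

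From 0 h to 4 h, 1562 genes (17.2% of 9071) were raised and 1494 (16.5%) lowered. Of the raised genes 531 (34.0%) were undone by 16 h, of which 423 lay within 2-fold of 0 h, 101 were still at least 2-fold over it and 7 had gone at least 2-fold under it. A further 739 of the raised genes were within 2-fold of 0 h at 16 h without having fallen 2-fold, 280 were still 2-fold over 0 h and not undone, and 12 had risen another 2-fold. Of the lowered genes 992 (66.4%) were undone, of which 868 lay within 2-fold of 0 h, 60 were still at least 2-fold under it and 64 were at least 2-fold over it. Of the remainder 271 were within 2-fold of 0 h, 229 were still 2-fold under it and 2 had fallen another 2-fold. Set directly against 0 h, 660 genes (7.28%) were higher and 428 (4.72%) lower at 16 h. Over 9227 genes, 23.6% differed 2-fold between 4 h and 16 h and 33.9% between 0 h and 4 h, while 12.1% did between 0 h and 16 h and 3.90% between 16 h and 2 d. All pairs with the 4 h library had at least 23.6%, and all pairs without it at most 12.1%. Whether this sets 4 h apart as a time or as a library cannot be told apart with 1 library per time point.

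**Figure D2:**
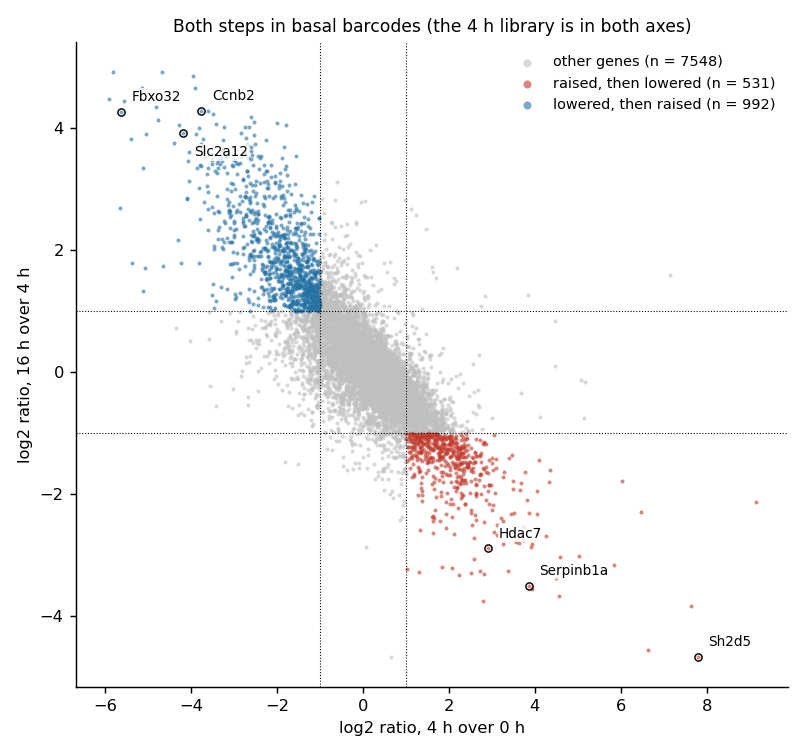
Log2 ratio of 16 h over 4 h against log2 ratio of 4 h over 0 h for 9071 genes in basal barcodes, 1 point per gene, with dotted lines at 2-fold. The 531 red and 992 blue genes are the undone ones, and both axes hold the 4 h level, so a downward slope is built into the plot.

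A few genes went past their 0 h level. Genes in this and the next paragraph were picked from their class by size after their values were seen. Cyp26b1, which degrades retinoic acid, was at 66.4, 136 and 14.5 CPM at 0, 4 and 16 h, and Klk10, a kallikrein protease, at 29.4, 91.0 and 14.7 CPM at 0, 4 and 16 h, and with F3 and Shb, an adaptor of receptor tyrosine kinases at 17.5, 62.5 and 6.87 CPM at 0, 4 and 16 h, they ended at least 2-fold under 0 h. The 64 genes that overshot upward included the replication genes Lig1 (24.9, 7.04 and 71.2 CPM at 0, 4 and 16 h) and Tk1, the mitotic genes Cdk1 (44.9, 16.97 and 116 CPM at 0, 4 and 16 h) and Birc5 (59.7, 16.2 and 134 CPM at 0, 4 and 16 h), and the histones Hist1h2ae (81.6, 15.2 and 178 CPM at 0, 4 and 16 h) and Hist1h2ap (145, 48.3 and 409.6 CPM at 0, 4 and 16 h). These are all genes of dividing cells. Late changes, in genes within 2-fold of 0 h at 4 h, were 407 higher and 135 lower genes, and 106 and 47 of these were also 2-fold from 0 h at 16 h. Aldh3a1, an aldehyde dehydrogenase, was at 22.1, 14.1, 100, 40.4, 39.7 and 21.3 CPM from 0 h to 6 d. Pycard, the adaptor of inflammasomes, was at 141, 89.5, 336, 266, 292 and 222 CPM from 0 h to 6 d. Other late rises included the replication genes Uhrf1 (14.1, 7.51 and 45.9 CPM at 0, 4 and 16 h), Gmnn (20.5, 12.6 and 68.5 CPM at 0, 4 and 16 h), Mcm5 (13.5, 10.5 and 56.9 CPM at 0, 4 and 16 h) and Rrm2 (22.96, 17.2 and 81.3 CPM at 0, 4 and 16 h). Late falls included the antimicrobial peptide Defb1 (49.4, 89.6 and 16.7 CPM at 0, 4 and 16 h), the NF-kB regulator Bcl3 (27.5, 51.8 and 9.98 CPM at 0, 4 and 16 h), the ERBB ligand Nrg1 (66.1, 126 and 27.9 CPM at 0, 4 and 16 h), the transcription factor Bnc1 (40.95, 57.4 and 15.1 CPM at 0, 4 and 16 h) and the prostaglandin synthase Ptges (102, 163 and 42.4 CPM at 0, 4 and 16 h).

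Part of the 4 h change was kept at 16 h or went further in the same direction. Krt79, a keratin of upper follicle ducts, was at 21.7, 50.8, 303, 621, 1661 and 881 CPM from 0 h to 6 d. Cst6, a cysteine protease inhibitor, was at 42.0, 91.5, 589, 2368, 3975 and 1637 CPM from 0 h to 6 d, and Defb6, a beta-defensin, at 15.3, 42.4, 217, 728, 789 and 533 CPM from 0 h to 6 d. All 3 rose in both steps and went on rising at 2 d, and Krt79 and Defb6 are themselves among the 6 upper follicle basal markers given above. Cstdc5, a cystatin domain gene, was at 17.5, 592, 540.1, 283, 41.7 and 222 CPM from 0 h to 6 d, so that its 4 h level was held at 16 h and declined later. Tpm2, a tropomyosin, was at 55.1, 325 and 357 CPM at 0, 4 and 16 h and Fabp5, a fatty acid binding protein, at 59.4, 481 and 285 CPM at 0, 4 and 16 h. Among genes lowered at 4 h and still low, Gadd45b, a stress sensor, was at 639.9, 59.6, 40.6, 144, 126 and 709.9 CPM from 0 h to 6 d. Icam1, an adhesion molecule for leukocytes, was at 317, 58.4, 59.1, 123, 67.4 and 198 CPM from 0 h to 6 d. Pim1, a survival kinase, was at 254, 35.9, 36.5, 87.1, 49.3 and 142 CPM from 0 h to 6 d. These 3 genes were well under 0 h in both libraries and were higher again at 6 d. Bmp2 was at 128, 16.5 and 26.3 CPM at 0, 4 and 16 h, Nfil3, a transcription factor tied to the clock, at 77.9, 10.02 and 15.6 CPM at 0, 4 and 16 h, and Ppp1r15a, which restarts translation after stress, at 439, 118 and 96.6 CPM at 0, 4 and 16 h.

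Most undone genes stayed within 2-fold of 16 h in the later libraries, but a smaller share of them did than of all genes. Of the 531 raised and then lowered, 90.4% were within 2-fold of 16 h at 2 d, with 91.7% for 4 d and 91.1% for 6 d, and of the 992 lowered and then raised, 95.4%, 93.8% and 90.5%. Over all 9071 genes the shares were 96.2%, 96.9% and 95%. Of the 106 late higher genes, 36.8% exceeded 0 h 2-fold at 2 d, with 60.4% for 4 d and 23.6% for 6 d, beside 2.18%, 6.23% and 2.76% of all genes. Of the 231 genes that were kept or moved further low, 61.9% lay 2-fold under 0 h at 2 d, with 62.8% for 4 d and 23.4% for 6 d, beside 4.48%, 4.38% and 1.54% of all genes. Of the 292 kept or moved further high, 20.2% lay 2-fold over 0 h at 2 d, with 49.3% for 4 d and 21.9% for 6 d.

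Cell cycle genes moved as a block. All 30 measured genes of the G2 and M phase list rose (median log2 ratio 3.03), and all 30 had been lowered at 4 h. All 13 measured replication dependent histone genes rose (median 2.82), and 29 of 34 measured S phase genes did (median 1.93), with none lower in these 3 lists. The summed level of the G2 and M phase genes was 2132 CPM at 0 h, 540.4 at 4 h and 3111 at 16 h, and that of the S phase genes 732, 609.5 and 1989 CPM. Only 8 of the 34 S phase genes were lowered and then raised, since most had changed less than 2-fold at 4 h. Kif11, a spindle motor, was at 26.0, 3.90, 46.6, 29.4, 31.1 and 23.8 CPM from 0 h to 6 d and rose 11.9-fold (10.3 to 13.9). Aurkb, a kinase of chromosome segregation, was at 12.3, 3.33 and 38.2 CPM at 0, 4 and 16 h and Ndc80, of the kinetochore, at 9.77, 1.60 and 20.7 CPM at 0, 4 and 16 h. Clspn, of the replication checkpoint, was at 20.6, 5.32 and 44.8 CPM at 0, 4 and 16 h and Cdc45, of the replicative helicase, at 4.77, 2.15 and 16.1 CPM at 0, 4 and 16 h. The G1 genes were mixed: of 9 cyclin D and CDK inhibitor genes, Cdkn2c (15.7, 2.34 and 28.6 CPM at 0, 4 and 16 h), Cdkn1b (52.0, 11.1 and 37.2 CPM at 0, 4 and 16 h) and Cdkn2d (123, 28.0 and 73.2 CPM at 0, 4 and 16 h) rose and none fell, with a list median of 0.16 that was -0.09 with TMM factors. Ccnd1, the cyclin of G1 entry, was at 97.2, 351, 220.4, 160.0, 174 and 142 CPM from 0 h to 6 d, down 1.59-fold from 4 h.

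The share of barcodes called cycling was measured after thinning each to 2000 UMIs, as those with at least 2 UMIs of 10 markers (Birc5, Cenpa, Cenpf, Hmgb2, Mki67, Nusap1, Prc1, Top2a, Tpx2 and Ube2c). It was 7.04% at 4 h (373 of 5296, 95% interval 6.37 to 7.77) and 32.4% at 16 h (1891 of 5831, 31.2 to 33.6), with 56 and 34 shallower barcodes left out. At 0 h it was 21.0%, and in the 3 later libraries 30.5%, 29.0% and 25.5%. Unthinned, with median depths of 8798 and 10898 UMIs, the shares were 34.3% and 74.6%, beside 67.6% at 0 h. The 4 h share was the lowest and the 16 h share the highest of the 6 libraries. These calls rest on the same markers as the G2 and M phase list and are no second line of evidence. Hmgb2 is also expressed outside mitosis, and free RNA in the droplets was not removed.

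**Figure D3:**
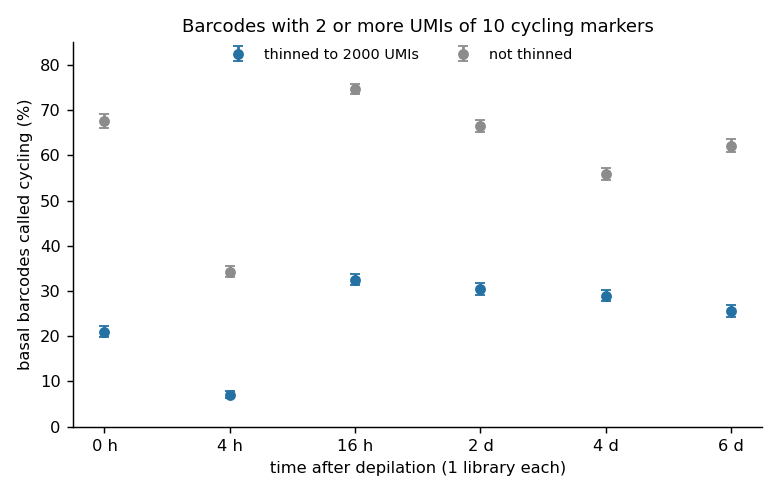
Share of basal barcodes with at least 2 UMIs of 10 cycling markers in each library (%), with exact 95% binomial intervals that cover counting error only. After thinning to 2000 UMIs the share is 7.04% at 4 h and 32.4% at 16 h, and without thinning 34.3% and 74.6%.

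Ribosome assembly genes moved in the opposite direction. Of 36 measured ribosome biogenesis genes, nucleolar factors that build ribosomal subunits, 31 fell and none rose (median -1.53), and 30 of them had been raised at 4 h. Their summed level was 3586 CPM at 0 h, 10800 at 4 h and 4514 at 16 h. Rrp12 was at 6.37, 81.1, 13.1, 6.65, 5.92 and 9.43 CPM from 0 h to 6 d and fell 6.21-fold (5.78 to 6.69). Rrp1b was at 13.4, 115, 20.2, 14.2, 15.6 and 18.5 CPM from 0 h to 6 d and fell 5.70-fold (5.37 to 6.04). At 16 h both were far under 4 h but still over each of the other libraries. The list median log2 ratio of 16 h over 0 h was 0.71, beside 0.27 for all genes. Rrp9 was at 17.6, 109 and 26.8 CPM at 0, 4 and 16 h, Nle1 at 8.09, 54.4 and 13.6 CPM at 0, 4 and 16 h and Nop2, whose promoter is printed above, at 12.9, 84.2 and 24.7 CPM at 0, 4 and 16 h. Of 28 translation factors, Eif6, which keeps ribosomal subunits apart (225, 889 and 309 CPM at 0, 4 and 16 h), and Eif2s1, a subunit of the initiation factor that brings the first tRNA (60.6, 295 and 117 CPM at 0, 4 and 16 h), fell, and none rose (median -0.66). None of 81 measured cytosolic ribosomal protein genes was called, and their median of 0.27 was 0.02 with TMM factors and below 0 with median of ratios factors. None of 34 proteasome genes (median -0.31) or 36 splicing factors (median -0.28) was called. With TMM factors 11 translation factors, 4 proteasome genes and 3 splicing factors were called lower, and with median of ratios factors 13, 4 and 3. Of 19 genes of amino acid synthesis and uptake under Atf4, 6 fell and 1 rose. The amino acid transporter Slc1a5 was at 5.27, 32.3 and 6.37 CPM at 0, 4 and 16 h, the transporter Slc7a5 at 17.1, 53.8 and 14.2 CPM at 0, 4 and 16 h, the folate enzyme Mthfd2 at 5.11, 49.9 and 16.2 CPM at 0, 4 and 16 h and asparagine synthetase, Asns, at 26.1, 135 and 48.5 CPM at 0, 4 and 16 h. Vldlr, a lipoprotein receptor, was the one that rose (22.6, 10.9 and 35.0 CPM at 0, 4 and 16 h). All 6 that fell had been raised at 4 h.

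Of 10 measured ERBB ligands and receptors, 3 ligands fell and 1 gene rose, beside 7.67% and 14.9% of all genes (median -0.46). Areg, amphiregulin, was at 21.1, 425, 122, 189.7, 39.7 and 29.4 CPM from 0 h to 6 d and fell 3.49-fold (3.40 to 3.58). Tgfa was at 27.8, 86.4, 16.8, 19.1, 8.58 and 20.5 CPM from 0 h to 6 d and fell 5.14-fold (4.81 to 5.48). Nrg1, neuregulin, was at 66.1, 126, 27.9, 78.5, 10.1 and 40.7 CPM from 0 h to 6 d and fell 4.50-fold (4.27 to 4.74). All 3 ligands were highest at 4 h, and Areg and Nrg1 were higher at 2 d than at 16 h. Lrig1, an ERBB inhibitor that also marks upper follicle stem cells, was at 24.8, 14.2, 46.9, 34.5, 68.8 and 40.7 CPM from 0 h to 6 d and rose 3.30-fold (3.04 to 3.59). The receptor Egfr was at 50.5, 87.1 and 50.8 CPM at 0, 4 and 16 h, Erbb2 at 20.3, 18.7 and 31.5 CPM at 0, 4 and 16 h and Erbb3 at 51.8, 27.5 and 46.7 CPM at 0, 4 and 16 h, none of them 2-fold apart. Of 12 ERK feedback genes, the phosphatase Dusp6 (77.2, 215 and 105 CPM at 0, 4 and 16 h) fell, and Spred2, an inhibitor of the Ras pathway (42.4, 9.36 and 30.1 CPM at 0, 4 and 16 h), and Ier3 (388, 84.3 and 177 CPM at 0, 4 and 16 h) rose, while with TMM factors 2 fell and 1 rose.

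Genes of adhesion and matrix proteolysis changed in both directions. Of 22 integrin and laminin genes 7 fell and 2 rose (median -0.08, and 0.01 with ribosomal protein, mitochondrial, Malat1 and Neat1 UMIs left out of the totals). Itgb1, the common beta chain of the collagen and laminin integrins, was at 206, 799, 202, 195, 156 and 196 CPM from 0 h to 6 d and fell 3.95-fold (3.88 to 4.03). Itga6, the laminin receptor chain of hemidesmosomes, was at 436, 1133, 513, 502, 319 and 351 CPM from 0 h to 6 d and fell 2.21-fold (2.18 to 2.24). Itga2, a collagen receptor chain, was at 36.2, 51.1 and 21.5 CPM at 0, 4 and 16 h and Itgb6, of an integrin that activates TGF-beta, at 18.2, 43.2 and 16.5 CPM at 0, 4 and 16 h. Itgb8 (3.26, 1.95 and 10.8 CPM at 0, 4 and 16 h) and Itgb5 (10.6, 1.91 and 8.75 CPM at 0, 4 and 16 h) rose from low levels. Of 14 genes of matrix proteolysis 5 fell and 2 rose (median -0.01, above 0 with those UMIs left out), and with TMM factors none rose. Mmp3, stromelysin, was at 18.6, 238, 68.0, 29.5, 13.3 and 21.7 CPM from 0 h to 6 d and fell 3.50-fold (3.39 to 3.62). Plaur, the urokinase receptor (5.19, 15.7 and 3.06 CPM at 0, 4 and 16 h), Plau, urokinase (8.20, 13.7 and 6.48 CPM at 0, 4 and 16 h), and Timp1, a metalloprotease inhibitor (0.0828, 9.77 and 1.58 CPM at 0, 4 and 16 h), also fell, and Timp3 (148, 35.7 and 74.6 CPM at 0, 4 and 16 h) and Mmp14 (63.8, 21.5 and 48.0 CPM at 0, 4 and 16 h) rose. Of 37 actin cytoskeleton genes Myh9, non-muscle myosin (155, 347 and 169.7 CPM at 0, 4 and 16 h), fell and Tmsb4x, which binds free actin (3823, 2567 and 5216 CPM at 0, 4 and 16 h), rose (median -0.43), and with TMM factors 5 fell and none rose. Of 27 junction genes 1 was called, Dsg1a, a desmosomal cadherin, which rose (160.4, 68.3 and 213 CPM at 0, 4 and 16 h), with 2 others called lower under TMM factors, and the list median of -0.07 was above 0 with those UMIs left out. Of 10 Yap targets 3 fell and 2 rose (1 with TMM factors), with Amotl2 (10.9, 44.4 and 14.6 CPM at 0, 4 and 16 h) and Tead1 (32.6, 63.8 and 21.3 CPM at 0, 4 and 16 h) among the first and Ptpn14, itself an inhibitor of Yap (137, 13.4 and 83.0 CPM at 0, 4 and 16 h), and Ccn2 (21.1, 11.1 and 23.7 CPM at 0, 4 and 16 h) the second.

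The wound keratins Krt6a, Krt6b and Krt16 fell. Krt6a was at 19.2, 1260, 368, 160.5, 75.1 and 169.6 CPM from 0 h to 6 d and fell 3.42-fold (3.37 to 3.47). Krt6b was at 0.138, 78.2, 17.8, 9.38, 0.114 and 1.57 CPM from 0 h to 6 d and fell 4.39-fold (4.11 to 4.68). Krt16 was at 637, 1320, 568, 544, 146 and 896 CPM from 0 h to 6 d and fell 2.33-fold (2.30 to 2.35), and it was under its 0 h level at 16 h, where the other pair stayed over theirs. Of the 9 measured genes of that list 3 fell and 2 rose, the latter the cystatin Stfa3 (18.5, 24.7 and 63.7 CPM at 0, 4 and 16 h) and the alarmin S100a9 (0.0276, 3.18 and 7.57 CPM at 0, 4 and 16 h). S100a9 is abundant in neutrophils. Of the neutrophil or macrophage markers Cxcr2 was at 11.5 CPM at 4 h and 1.03 at 16 h, Lyz2 at 0.041 and 0.471 and Adgre1 at 0.041 and 0.157, and their part in this rise was not tested. The genes that the study describes as early response genes of the bulge, with simple epithelial keratins, fell in 4 of 6 measured cases (median -1.71), and the study chose them on these samples. In bulge-like barcodes 1 of 5 measured members fell and 1 rose (median -0.20), with Krt8 at 16.2 CPM at 4 h and 40.2 at 16 h (15 and 82 UMIs) and Ets1 at 11.9 and 17.1 CPM (11 and 35 UMIs). Cgref1 was at 1.82, 21.5, 3.14, 0.815, 0.658 and 4.58 CPM from 0 h to 6 d and fell 6.85-fold (5.92 to 7.96). Krt18, a keratin of simple epithelia, was at 1.13, 21.8, 3.41, 0.330, 0.458 and 1.39 CPM from 0 h to 6 d and fell 6.40-fold (5.56 to 7.40). Its partner Krt8 was at 0.524, 18.6, 11.1, 0.220, 1.23 and 1.024 CPM from 0 h to 6 d, 1.68-fold lower at 16 h and so not called. Ets1, a transcription factor, was at 45.8, 82.5 and 20.6 CPM at 0, 4 and 16 h and Rin1, a regulator of Ras signalling, at 18.8, 64.8 and 24.3 CPM at 0, 4 and 16 h, and both fell. Krt80 (82.7, 16.03 and 46.1 CPM at 0, 4 and 16 h) rose. Krt90 did not reach 5 CPM (0.0276, 0.431 and 1.43 CPM at 0, 4 and 16 h).

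Inflammatory and stress genes did not move together. Of 19 measured cytokine, chemokine and NF-kB feedback genes 6 rose (31.6%, beside 14.9% of all genes) and 3 fell (15.8%, beside 7.67%), with a median of 0.53. With TMM factors 5 rose and 3 fell, and with median of ratios factors 4 rose and 4 fell. Their summed level was 6000, 2783 and 2265 CPM at 0, 4 and 16 h. Ccl20, which attracts lymphocytes and dendritic cells, was at 19.9, 3.96, 26.9, 76.6, 10.3 and 15.5 CPM from 0 h to 6 d and rose 6.78-fold (5.84 to 7.91). Il1r2, the decoy receptor for interleukin 1, was at 123, 17.6, 98.2, 79.6, 74.7 and 84.6 CPM from 0 h to 6 d and rose 5.56-fold (5.18 to 5.98). Tnfaip3, an inhibitor of NF-kB, was at 319, 38.6, 114, 172, 110.4 and 144 CPM from 0 h to 6 d and rose 2.96-fold (2.82 to 3.12). Tnfaip3 was still well under 0 h at 16 h, and Ccl20 and Il1r2 were near it. Of 34 immediate early genes, transcription factors and feedback genes induced within minutes, 4 rose and 1 fell (median 0.09, and -0.16 with TMM factors, under which 3 rose and 3 fell), and 17 members had a ratio over 1 and 17 under 1. Fosl2 (81.7, 17.1 and 49.3 CPM at 0, 4 and 16 h), Nr4a3 (13.6, 4.60 and 17.6 CPM at 0, 4 and 16 h), Egr2 (44.3, 16.2 and 43.9 CPM at 0, 4 and 16 h) and Ier3 rose and the phosphatase Dusp2 (11.3, 11.8 and 1.63 CPM at 0, 4 and 16 h) fell. The summed level of the list was 38760 CPM at 0 h, 21030 at 4 h and 20460 at 16 h. Of 29 chaperones 3 fell, Hspb1 (2254, 1937 and 642 CPM at 0, 4 and 16 h), Hspa4 (115, 337 and 163 CPM at 0, 4 and 16 h) and Cct3 (101, 379 and 186 CPM at 0, 4 and 16 h), and 2 rose, Hspa4l (51.7, 23.1 and 83.3 CPM at 0, 4 and 16 h) and Cryab (4.97, 5.15 and 15.2 CPM at 0, 4 and 16 h), and with TMM factors 7 fell. Hspb1 differs from the other pair that fell in having been as high at 0 h as at 4 h. On totals 10.3% of the chaperones fell and 6.90% rose, beside 7.67% and 14.9% of all genes. Of 10 measured interferon stimulated genes 3 rose and 1 fell, and the first of them, Irf1, was at 326, 9.75, 32.1, 69.9, 64.9 and 180.1 CPM from 0 h to 6 d. Of 13 glucocorticoid responsive genes 4 rose and none fell (3 and 1 with TMM factors), led by Tsc22d3 (43.7, 3.86 and 25.3 CPM at 0, 4 and 16 h) and Zbtb16 (57.8, 2.94 and 13.3 CPM at 0, 4 and 16 h). Mt1, a metallothionein, was at 3660, 5000 and 2196 CPM at 0, 4 and 16 h and fell, and Mt4 of the suprabasal layers was at 33.97, 9.95 and 37.4 CPM at 0, 4 and 16 h and rose. The median of the 4 genes of that list, metallothioneins and a zinc exporter, was -0.09, above 0 with ribosomal protein, mitochondrial, Malat1 and Neat1 UMIs left out.

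P53 targets were called about as often as all genes. Of 20 measured genes of the list, which holds Trp53 itself beside its targets, 2 fell (10%, beside 7.67% of all genes) and 2 rose (10%, beside 14.9%). Those that fell were Aen, a nuclease (16.8, 92.1 and 32.5 CPM at 0, 4 and 16 h), and Phlda3, an inhibitor of Akt (88.4, 469.6 and 179 CPM at 0, 4 and 16 h), and those that rose were Trp53inp1 and Fas, a death receptor (34.7, 3.35 and 15.3 CPM at 0, 4 and 16 h). The list median of 0.15 was -0.09 with TMM factors. Trp53 itself was at 79.9, 91.6, 93.2, 87.9, 100 and 92.6 CPM from 0 h to 6 d and was 1.018-fold (0.979 to 1.06) higher at 16 h. Mcl1, the anti-apoptotic gene that the study is about, was at 488, 329, 270.0, 337, 280.4 and 238 CPM from 0 h to 6 d and was 1.22-fold (1.19 to 1.24) lower at 16 h. None of 10 measured BCL-2 family genes was called (median 0.24, and -0.01 with TMM factors). Bax, an executor of apoptosis, was at 62.2, 126 and 95.7 CPM at 0, 4 and 16 h, Bbc3, which P53 induces, at 38.9, 6.36 and 9.21 CPM at 0, 4 and 16 h, and Bcl2 at 15.2, 6.08 and 9.91 CPM at 0, 4 and 16 h. Of the Hedgehog genes the study names, Gli1, a target of the pathway, was at 0.248, 0.185 and 0.600 CPM at 0, 4 and 16 h (9, 9 and 42 UMIs), and the ligand Shh had 1 UMI in each of the 4 h and 16 h sums and none at 0 h. Fgf18, a ligand of the quiescent follicle, was at 1.66, 2.54 and 1.03 CPM at 0, 4 and 16 h. None of these 3 reached 5 CPM. In bulge-like barcodes Fgf18 was at 100.5 CPM at 4 h and 15.2 at 16 h (93 and 31 UMIs). There 4 of 20 genes of the P53 target list were 2-fold higher at 16 h and none lower, and 2 of 10 BCL-2 family genes were higher and 1 lower. Of all genes measured in bulge-like barcodes, 14.1% were higher and 5.8% lower.

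Of 23 basal epidermal genes, which mark keratinocyte identity, 3 rose (13.0%, beside 14.9% of all genes) and 4 fell (17.4%, beside 7.67%), with a median of -0.24. With TMM and median of ratios factors 7 and 8 of them fell. Sostdc1, a secreted inhibitor of BMP and Wnt signalling, was at 163, 15.7, 161, 204, 402 and 333 CPM from 0 h to 6 d and rose 10.2-fold (9.504 to 11.02). Krt15, a keratin of resting basal and bulge cells, was at 6775, 915, 2946, 2256, 4476 and 3791 CPM from 0 h to 6 d and rose 3.22-fold (3.19 to 3.25). Both were lowest at 4 h, and Krt15 regained only part of its level. Cd44, the hyaluronan receptor, was at 298, 763, 205, 304, 184 and 278 CPM from 0 h to 6 d and fell 3.71-fold (3.64 to 3.79). Sfn, an adaptor of the 14-3-3 family in stratified epithelium, was at 8354, 11800 and 5140 CPM at 0, 4 and 16 h and fell 2.30-fold. Igfbp2, a binder of insulin-like growth factors, was at 0.966, 4.43 and 14.6 CPM at 0, 4 and 16 h and rose, and Dll1, the Notch ligand of basal cells, was at 37.8, 52.9 and 17.8 CPM at 0, 4 and 16 h and fell. Of 16 measured bulge and HF stem cell genes 7 rose and none fell (median 0.93), but with TMM factors 3 rose, and with median of ratios factors 3 rose and 1 fell. Lhx2, a transcription factor of follicle stem cells, was at 6.93, 5.73, 16.8, 16.7, 82.9 and 61.5 CPM from 0 h to 6 d. Postn, a matricellular protein, was at 60.3, 64.4, 153, 372, 136 and 101 CPM from 0 h to 6 d, and Gas1, a membrane protein of growth arrest, at 60.9, 33.1, 82.7, 89.3, 123 and 102 CPM from 0 h to 6 d. The number of bulge-like barcodes was also higher at 16 h (275 against 190), and within bulge-like barcodes 0 of the 16 genes were called (median -0.02). In Ly6a barcodes, however, 6 of 11 measured members were 2-fold higher at 16 h and 0 lower (median 1.27). In suprabasal barcodes, defined below, 8 of 11 were higher and 0 lower (median 1.11). The part of the number of bulge-like barcodes in the rise was not tested.

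Of 23 measured differentiation genes 7 rose and 1 fell (median 0.42), and with TMM or median of ratios factors 6 rose and 4 fell. Upper follicle suprabasal markers summed to 922 CPM at 4 h and 1671 at 16 h in the same sums. Krt79, Cst6 and Defb6 are themselves among these markers, so their sum is not independent of the genes described here. In T cell barcodes, defined below, 13 of 23 measured differentiation genes were 2-fold higher at 16 h and 1 was lower (median 1.15). In suprabasal barcodes, also defined below, 2 were higher and 1 lower (median -0.05). The parts of upper follicle cells and of free RNA in these changes were not tested. Apart from Krt79 and Cst6, Krt77, a suprabasal keratin, was at 80.3, 48.1 and 132 CPM at 0, 4 and 16 h, Calml3, a calmodulin-like protein, at 10.7, 6.40 and 16.8 CPM at 0, 4 and 16 h and Ivl, involucrin, at 2.92, 3.57 and 8.45 CPM at 0, 4 and 16 h. All 3 rose. Barcodes with up to 100 of Krt1 and Krt10 per 10000 UMIs were admitted by the rule. Of 23 measured Wnt pathway genes 6 rose and none fell, with a median of 0.16 that was -0.09 with TMM factors. Lgr6, a receptor for R-spondins in the upper follicle, was at 26.6, 4.23, 30.2, 28.3, 35.7 and 31.3 CPM from 0 h to 6 d and rose 7.15-fold (6.195 to 8.29). The ligand Wnt6 was at 31.0, 2.38, 16.5, 13.5, 25.5 and 19.3 CPM from 0 h to 6 d and rose 6.94-fold (5.73 to 8.47). The receptors Fzd7 (5.33, 4.12 and 14.1 CPM at 0, 4 and 16 h) and Fzd1 (6.18, 4.54 and 13.5 CPM at 0, 4 and 16 h) and the ligand Wnt5a (20.4, 7.22 and 20.6 CPM at 0, 4 and 16 h) rose as well. Of 10 measured Notch genes Lfng, which modifies Notch receptors (11.4, 4.31 and 14.5 CPM at 0, 4 and 16 h), rose and Dll1 fell (median 0.03, and -0.22 with TMM factors). Each was 10% of the list, beside 14.9% higher and 7.67% lower of all genes. Of 22 genes of TGF-beta, BMP and Id signalling 6 fell (27.3%, beside 7.67% of all genes) and 2 rose (9.09%, beside 14.9%), with a median of -0.14. With TMM factors 7 fell and 1 rose. Smad3, a transducer of TGF-beta, was at 15.01, 46.4, 8.54, 7.20, 10.98 and 15.5 CPM from 0 h to 6 d and fell 5.44-fold (4.97 to 5.96). Fst, follistatin, which binds activin, was at 113, 369, 89.8, 99.1, 132 and 184 CPM from 0 h to 6 d and fell 4.11-fold (3.99 to 4.23). Id3, a target of BMP signalling, was at 1013, 129, 316, 494, 334 and 613 CPM from 0 h to 6 d and rose 2.45-fold (2.38 to 2.52). Smad3 and Fst were highest at 4 h and Id3 lowest. Bmp4 rose (52.7, 14.9 and 32.1 CPM at 0, 4 and 16 h), and Pmepa1, a target and inhibitor of TGF-beta signalling (83.1, 274 and 92.2 CPM at 0, 4 and 16 h), and the receptor Tgfbr2 (40.1, 84.9 and 40.4 CPM at 0, 4 and 16 h) fell.

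Metabolic genes differed by pathway. Of 26 genes of glycolysis and the hypoxia response 7 fell and none rose (median -0.28). Slc16a1, a lactate transporter, was at 21.2, 87.3, 20.8, 29.6, 18.4 and 36.1 CPM from 0 h to 6 d and fell 4.20-fold (3.96 to 4.46). Hif1a, the hypoxia inducible factor, was at 164, 364, 111, 124, 129 and 206 CPM from 0 h to 6 d and fell 3.28-fold (3.20 to 3.37). Hk2, hexokinase, was at 37.1, 45.2 and 13.5 CPM at 0, 4 and 16 h, Vegfa, the vascular growth factor, at 28.6, 38.7 and 11.4 CPM at 0, 4 and 16 h and Car9, a carbonic anhydrase, at 1.21, 10.8 and 1.998 CPM at 0, 4 and 16 h. Of these only Slc16a1, Hif1a and Car9 had been 2-fold higher at 4 h than at 0 h. None of 58 nuclear genes of oxidative phosphorylation was called, yet 53 of them had a ratio over 1 (median 0.45), beside 4786 of all 8999 genes tested. The list median was 0.20 with TMM factors and 0.16 with median of ratios factors. Ndufa1, of complex I, was at 99.6, 86.5 and 172 CPM at 0, 4 and 16 h and Cox8a, of complex IV, at 518, 413 and 750.1 CPM at 0, 4 and 16 h. Of 29 genes of sterol and fatty acid synthesis 9 rose and none fell (median 0.30), but with TMM or median of ratios factors 3 rose and 1 fell (medians 0.06 and 0.01). Hmgcs1, at the start of sterol synthesis, was at 189.5, 137, 299.5, 243, 242 and 206 CPM from 0 h to 6 d and rose 2.19-fold (2.13 to 2.25). Fdps, which makes farnesyl diphosphate, was at 67.9, 59.4, 149, 76.6, 172 and 126 CPM from 0 h to 6 d and rose 2.51-fold (2.41 to 2.62). Scd1, a desaturase of fatty acids (39.7, 21.3 and 57.5 CPM at 0, 4 and 16 h), also rose, but its ratio turned when barcodes with Krt5 and Krt14 of 50 to 100 per 10000 UMIs were added (log2 ratio -0.23). The sebaceous gland markers summed to 101.5 CPM at 4 h and 174.1 at 16 h. In T cell barcodes 8 of 29 measured genes of the sterol and fatty acid list were 2-fold higher at 16 h and 1 was lower (median 0.61). The parts of sebaceous cells and of free RNA in these rises were not tested. Of 25 Nrf2 targets 3 fell (12%, beside 7.67% of all genes) and 1 rose (4%, beside 14.9%). The list median of 0.12 was -0.13 with TMM factors, under which 5 fell and none rose. Thioredoxin reductase, Txnrd1, was at 61.1, 91.6 and 38.3 CPM at 0, 4 and 16 h and fell, and the glutathione transferase Gstm1 was at 52.3, 20.7 and 44.99 CPM at 0, 4 and 16 h and rose, a call that was lost with TMM factors. Of 13 measured clock genes Dbp (4.995, 19.1 and 3.81 CPM at 0, 4 and 16 h) and Cry1 (17.7, 27.2 and 6.87 CPM at 0, 4 and 16 h) fell and Per1 (26.9, 7.86 and 24.8 CPM at 0, 4 and 16 h) rose, with a median of 0.19 that was -0.06 with TMM factors. On totals 15.4% of the clock genes fell and 7.69% rose, beside 7.67% and 14.9% of all genes. The hour of day of each harvest is not given in the sources used here, so time after depilation and time of day cannot be told apart.

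**Figure D4:**
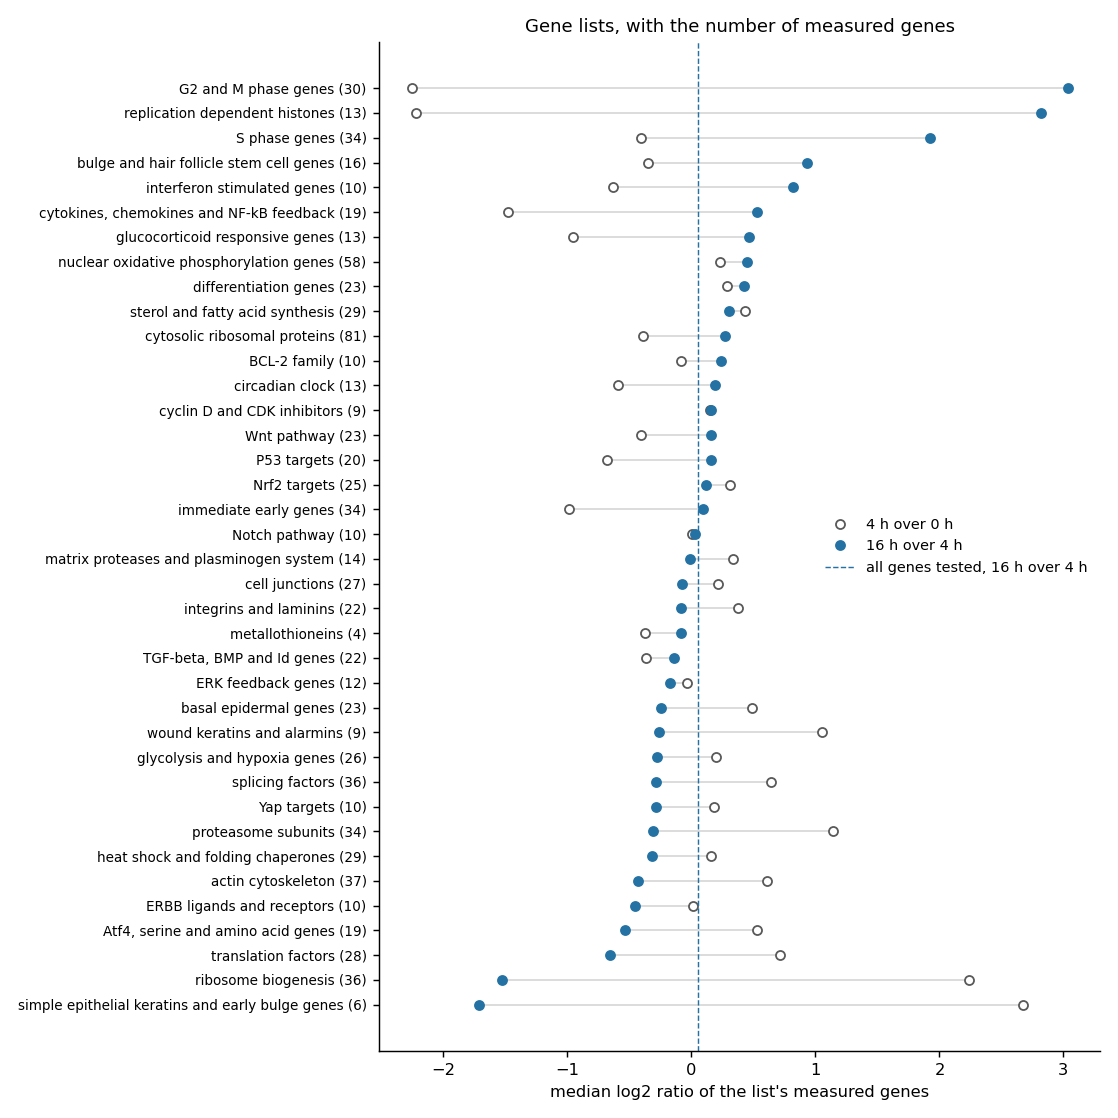
Median log2 ratio over the measured genes of each of 38 lists, for 4 h over 0 h (open circles) and 16 h over 4 h (filled circles), with the number of measured genes in brackets and the median of all genes tested for 16 h over 4 h as a dashed line. The G2 and M phase, histone and S phase lists lie farthest to the right at 16 h over 4 h, and the ribosome biogenesis and simple epithelial keratin lists farthest to the left. The 4 h library is in both ratios.

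The undone genes were summed in single barcodes to see how the 16 h barcodes were spread. This is a description, since the genes were chosen on the same barcodes. The 531 raised and then lowered genes made up a median of 1.77% of a barcode's UMIs at 0 h (5th to 95th percentile 1.26 to 3.22). At 4 h the median was 7.36% (4.91 to 9.36), and by 16 h it was 2.38% (1.65 to 4.44). Of the 16 h barcodes 3.39% (199 of 5865) lay inside the 4 h percentile range, beside 0.256% at 0 h and 0.180% at 2 d. The 939 lowered and then raised genes other than S phase, G2 and M phase and histone genes made up medians of 4.46%, 1.03% and 3.88% at 0 h, 4 h and 16 h, and 7.66% (449) of the 16 h barcodes lay inside the 4 h range of 0.588 to 2.40%. For the 36 ribosome biogenesis genes the medians were 0.332%, 1.08% and 0.383%, and 12.4% of 16 h barcodes lay inside the 4 h range, beside 3.22% at 0 h. Most 16 h barcodes lay outside the 4 h range, and a minority inside it. Barcodes with few UMIs spread more widely by counting error alone.

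**Figure D5:**
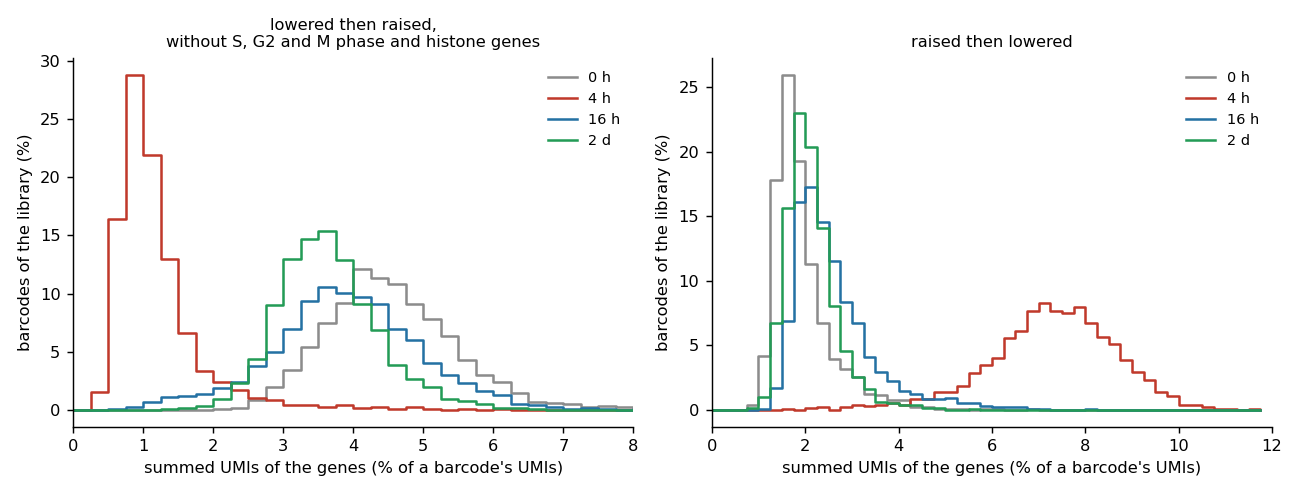
Distribution over basal barcodes of the summed UMIs of the undone genes, as a percentage of each barcode's UMIs, at 0 h, 4 h, 16 h and 2 d. The 16 h curve lies near those of 0 h and 2 d in both panels, with a tail that reaches the 4 h range.

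The same 16 h to 4 h ratios were taken in other barcodes of the same libraries. Ly6a and bulge-like barcodes are kinds of basal ones. The first had at least 2 per 10000 UMIs of Ly6a and under 2 of Cd34 and Krt24 together, and the second the reverse. Suprabasal barcodes had at least 100 of Krt1 and Krt10, and T cell barcodes at least 3 UMIs of T cell markers with Krt5 and Krt14 under 30 per 10000. Of the genes that rose, 97.3% of those measured were 2-fold higher in the Ly6a barcodes (4047 at 4 h and 3979 at 16 h), and of those that fell 96.8% were 2-fold lower. These barcodes are most of the basal ones, so the overlap is built in. In bulge-like barcodes the shares were 51.2% and 27.5%, against 14.1% and 5.8% of all measured genes, from far smaller sums (925230 UMIs at 4 h and 2040744 at 16 h). Serpinb1a, Ets1, Mmp3 and Dusp6, which fell in all basal barcodes, had a ratio over 1 there. These ratios are given without intervals, and that of Serpinb1a rests on 33 UMIs at 4 h and 107 at 16 h. In suprabasal barcodes, which are no members (644 and 1550), 45.2% and 68.8% of the measured genes moved 2-fold the same way, against 7.66% and 8.21% of all. In T cell barcodes (404 and 262) the shares were 23.7% and 8.48%, against 8.74% and 4.45%. Ribosome biogenesis genes fell in 31 of 36 cases in Ly6a barcodes, 29 of 36 in suprabasal barcodes, 11 of 36 in bulge-like barcodes and 0 of 36 in T cell barcodes, where 3 rose. G2 and M phase genes rose in 30 of 30 cases in Ly6a barcodes, 10 of 14 measured in suprabasal barcodes, 7 of 8 in bulge-like and 7 of 15 in T cell barcodes, where 2 fell. In T cell barcodes their summed level was lower at 16 h, with 850.0 CPM at 4 h and 613.7 at 16 h. The differences between these kinds of barcodes were not tested. Leaving out the barcodes called cycling, and those under 2000 UMIs that could not be called, kept 4923 at 4 h and 3940 at 16 h. In these, 90.8% of the measured genes that rose and 92.9% of those that fell still differed 2-fold the same way, against 13.5% and 8.62% of all. They are most of the basal barcodes, so this overlap is largely built in too. There 19 of 30 measured S phase genes and 2 of 7 measured G2 and M phase genes were higher, and 31 of 36 ribosome biogenesis genes lower. Dividing cells with fewer than 2 marker UMIs after thinning can remain among them.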

How the data were processed

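Cells were captured with a 10x Genomics 3′ kit, and the authors deposited raw UMI counts per gene and barcode for 6 libraries, without normalization, as filtered by Cell Ranger 6.1.2 (build mm10 per the labels' processing notes). Whether intronic reads were counted is not given in the sources used here. Skin was digested by enzyme per the labels, and which enzyme was used for each library is not given in the sources used here. From the deposited counts, barcodes were selected by the limits given above and summed per library. Ratios of CPM were given exact conditional binomial 95% intervals (Clopper-Pearson). No count test was run, since each time point is 1 library, and the mice in it are not separable. The study predicted doublets with scDblFinder after making these matrices. Here no doublet caller was run, and the limit of 7000 genes (6000 as an alternative) and an alternative without barcodes that held RNA of other lineages stand in its place. The files list 32285 features, of which 38 symbols occur more than once. Named genes were the 10 highest and the 10 lowest ratios at a mean of at least 20 CPM with the interval beyond 2-fold, the 8 strongest undone genes of each kind, up to 4 members per list by size of change, and genes for which the study names a role. Further list members and the kept, late and overshooting genes were chosen after their values were seen. The basal barcodes, members and lists were chosen with earlier results of these data known. Calls, ratios and intervals were tested on simulated gene totals with counting error only, without differences between barcodes or mice. Gene positions are from the mm10 GENCODE annotation and promoters from RefSeq (GRCm38.p6). TMM factors came from edgeR 4.0.16 in R 4.3.3, and the rest was computed in Python 3.11.15 with numpy 2.4.6, scipy 1.17.1, pandas 2.3.3 and matplotlib 3.10.9. Free RNA was not removed. Some genes that these rules choose are not reported here. Alternatives changed the barcode limits, the expression filter, the fold, the scaling and the cycling rule.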

Additional observations from a re-analysis of the deposited data

Results flagged for a closer look

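Akr1b8, an aldo-keto reductase, moved in opposite directions in bulge-like and in Ly6a barcodes. In all basal barcodes it was at 6.76, 91.7, 29.6, 30.1, 18.7 and 16.9 CPM from 0 h to 6 d. In Ly6a barcodes it was at 103.2 CPM at 4 h and 33.6 at 16 h, 3.07-fold lower. In bulge-like barcodes it had 0 UMIs at 4 h and 24 at 16 h, at least 3.63-fold higher when the 4 h sum is set to the limit of 3 UMIs. The difference between the kinds of barcodes was not tested, and there is 1 library per time point.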

How the results depend on the processing

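No paired analysis was possible because each time point is 1 library, and for the same reason no replicate could be left out. With a limit of 1.5-fold, 2340 genes were higher, 1638 lower, 1313 raised and then lowered and 1715 lowered and then raised, and with 3-fold 644, 210, 152 and 474. Without an expression filter, with counts under 3 set to 3, the numbers were 3617, 1360, 853 and 2459. With a mean of at least 1 CPM, 2231 genes were higher and 1641 lowered and then raised, and with at least 20 CPM 499 and 372. TMM factors gave 1181 lower and 890 raised and then lowered genes, and median of ratios factors 1305 and 965. In bulge-like barcodes 285 genes were raised and then lowered, a count that also rests on 71 bulge-like barcodes at 0 h, beside 190 at 4 h and 275 at 16 h. All other barcode limits tried, and leaving out cycling barcodes, kept these 4 counts within 1.5 times. Cycling shares at 4 h and 16 h were 25.5% and 55.1% with at least 1 marker UMI, 2.79% and 21.0% with at least 4, and 34.3% and 74.6% without thinning.

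Log2 ratios of 14 named genes turned sign in bulge-like barcodes: Serpinb1a 0.56, Ets1 0.53, Fosl2 -0.52, Krt80 -0.92, Gsr 0.41, Gstm1 -0.64, Dusp6 0.39, Ier3 -0.33, Amotl2 0.091, Mmp3 0.44, Dbp 0.89, Postn -0.22, Id3 -0.996 and Dll1 0.44. These 14 ratios are given without intervals, and those of Amotl2 and Postn are the nearest to no change. With Krt5 and Krt14 of at least 50 per 10000 UMIs, Scd1 (-0.23) turned. In bulge-like barcodes 60 of 112 named genes called were no longer 2-fold apart, and under each other setting 0 to 7 of 128. The cause was not tested. Totals without ribosomal protein, mitochondrial, Malat1 and Neat1 UMIs, and leaving out Sparc and Thy1 from the markers of other lineages, were chosen after seeing the data. The bulge-like sums held 925230 UMIs at 4 h, which limits what they can show, and genes under 5 CPM were not compared.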
